A study of Mus musculus with 72 samples.

Results

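Transgenic PLZF/RARA leukaemia after 12 h of retinoic acid (RA) was examined on 8 of the 72 arrays of the series. The arrays were chosen by their labels: model transgenics, fusion protein PLZF/RARA, background WT and batch 1, with 4 arrays labelled retinoic acid at 12 h and 4 labelled untreated. Of the untreated arrays, 2 carry the time label 6 h and 2 the label 12 h, and both were used together as controls. Each array measured total RNA of bone marrow, extracted from tumour samples, on an Affymetrix Mouse Gene 1.0 ST array, and the deposited values are log2 intensities. For reference, 4 PLZF/RARA arrays of RA at 6 h, and transgenic PML/RARA arrays of the same background (8 with RA at 12 h and 8 untreated, of which 4 are labelled 6 h and 4 labelled 12 h, and 2 of the 6 h ones are of batch 2), are given beside them. The labels give neither the promoter that drives the transgene nor the strain and age of the mice nor the dose of RA. All PLZF/RARA groups carry the transgene, so no array shows marrow without it. The labels do not say whether the arrays of a group came from separate mice or separate leukaemias. Every p-value therefore measures a spread between arrays. For limma that spread was taken from all 36 transgenic arrays, among them PML/RARA arrays with RA at 6 h.

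PLZF/RARA is the fusion of the transcriptional repressor PLZF (mouse gene Zbtb16) with the retinoic acid receptor alpha (Rara), and it drives a form of acute promyelocytic leukaemia that is known for a poor response to RA in patients. RA binds receptors that sit on DNA as pairs with retinoid X receptors, and ligand turns a repressing complex into an activating one at genes such as Cyp26a1, whose enzyme breaks RA down. In promyelocytes RA is known to start granulocyte differentiation, and interferon signalling, in which STAT and IRF factors bind the promoters of antiviral genes, is known to be switched on when RA differentiates promyelocytic leukaemia cells.

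Promoter sequences are shown for 6 genes called higher with RA that hold a motif of the receptors or of interferon signalling. They come from the RefSeq table of the GRCm38.p6 build, read in the direction of the gene from 250 bases before to 50 bases after its start, and capitals mark the matched motif. The retinoid motif was the direct repeat of the short element bound by the receptor, with 5 bases between the copies, searched on both strands, and it was present in 0.115% of 27025 genes with a promoter in the table. Of the 7 retinoid target genes called higher (below), 5 had a promoter in the table and 2 held the motif, Cyp26a1 (chr19:37697558-37697857, plus strand) and Rarb (chr14:16575427-16575726, minus strand), where the match also overlapped a match to TTCNNNGAA. Over all measured retinoid targets the motif stood in 2 of 17 promoters (11.8%). No retinoid target promoter held the repeat with 2 or 1 bases between the copies, which stood in 0.311% and 0.263% of genes. The interferon-stimulated response element was searched as GAAANNGAAA on both strands. It stood in 12 of the 27 promoters of interferon-induced genes called higher (44.4%) and in 13 of the 31 of all measured ones (41.9%), among them Ddx60 with 2 matches (chr8:61927837-61928136, plus strand), Ifi203 (chr1:173942443-173942742, minus strand), Trim30a (chr7:104465144-104465443, minus strand) and Oas3 (chr5:120777610-120777909, minus strand), and in 3.99% of all genes. The gamma-activated site TTCNNNGAA stood in 6 of the 27 (22.2%) and in 9.55% of all genes. The C/EBP motif TTGCNNAA, searched on both strands, stood in 0 of the 8 promoters of granule genes called higher, in 11 of 35 of all measured granule genes (31.4%) and in 12.2% of all genes, and no granule promoter is shown. Matches of letters are a description of these windows only.
Cyp26a1: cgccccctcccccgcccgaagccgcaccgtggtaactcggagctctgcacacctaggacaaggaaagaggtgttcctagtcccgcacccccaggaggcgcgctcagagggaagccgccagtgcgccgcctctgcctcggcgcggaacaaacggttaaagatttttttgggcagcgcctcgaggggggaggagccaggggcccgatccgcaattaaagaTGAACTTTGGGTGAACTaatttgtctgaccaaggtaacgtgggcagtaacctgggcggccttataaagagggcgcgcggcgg
Rarb: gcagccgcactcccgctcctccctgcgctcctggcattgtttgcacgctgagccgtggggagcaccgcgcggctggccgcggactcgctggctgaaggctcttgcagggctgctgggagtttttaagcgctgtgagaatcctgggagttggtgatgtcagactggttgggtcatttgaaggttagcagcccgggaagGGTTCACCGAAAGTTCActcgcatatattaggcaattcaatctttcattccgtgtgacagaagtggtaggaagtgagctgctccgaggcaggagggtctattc
Ddx60: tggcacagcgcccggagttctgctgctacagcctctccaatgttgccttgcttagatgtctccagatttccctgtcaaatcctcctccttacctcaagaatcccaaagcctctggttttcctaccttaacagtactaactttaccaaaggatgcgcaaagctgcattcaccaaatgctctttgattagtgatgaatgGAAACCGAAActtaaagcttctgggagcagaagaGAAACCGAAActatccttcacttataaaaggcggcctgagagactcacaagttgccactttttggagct
Ifi203: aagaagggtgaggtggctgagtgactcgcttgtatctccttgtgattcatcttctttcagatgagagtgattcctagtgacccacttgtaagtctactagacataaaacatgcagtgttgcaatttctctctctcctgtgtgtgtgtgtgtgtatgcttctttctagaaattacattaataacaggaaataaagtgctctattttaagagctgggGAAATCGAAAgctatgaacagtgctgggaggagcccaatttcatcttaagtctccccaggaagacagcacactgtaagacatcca
Trim30a: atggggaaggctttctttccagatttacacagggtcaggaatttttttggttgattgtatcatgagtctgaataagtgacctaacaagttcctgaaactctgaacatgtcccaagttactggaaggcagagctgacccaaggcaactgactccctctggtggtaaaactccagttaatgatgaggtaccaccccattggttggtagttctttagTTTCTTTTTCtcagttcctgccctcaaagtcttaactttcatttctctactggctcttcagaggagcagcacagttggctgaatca
Oas3: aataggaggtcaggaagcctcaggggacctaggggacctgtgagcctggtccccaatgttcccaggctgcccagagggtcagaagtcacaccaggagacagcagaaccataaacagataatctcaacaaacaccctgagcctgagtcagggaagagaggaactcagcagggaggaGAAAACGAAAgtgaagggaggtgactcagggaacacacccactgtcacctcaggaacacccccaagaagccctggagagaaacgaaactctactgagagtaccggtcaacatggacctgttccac

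RA at 12 h was compared with the untreated arrays by limma over 19938 genes, and a gene with a Benjamini-Hochberg adjusted p below 0.05 was counted as called. In all, 1351 genes were called (6.78%), of which 760 were higher (3.81%) and 591 lower (2.96%) with RA, with 499 past 1.5-fold (329 higher and 170 lower). The split was 790 higher and 757 lower after a further quantile normalization, and 653 higher and 708 lower after centring each array on its median. The count was 836 without untreated 6 h array 1, and 647 when the spread was taken from the PLZF/RARA arrays only. The median change over all genes was -0.016 on the log2 scale. Array medians ran from 6.556 to 6.665, and correlations between the 8 arrays from 0.985 to 0.994. Of the 8, 3 arrays stood apart in some gene groups and are named where they matter. Untreated 6 h array 2 was the highest untreated array in 32 of 41 interferon-induced genes (14% of all genes), RA 12 h array 1 was the lowest RA array in 38 of the 41 (36.8% of all genes), and untreated 12 h array 1 was low in granule genes. All changes below are log2 differences with their standard error (SE) from that fit, and levels are log2 intensities listed in the order untreated 6 h arrays 1 and 2, untreated 12 h arrays 1 and 2, then RA 12 h arrays 1 to 4. In bulk marrow, fewer cells of a type and less RNA per cell cannot be told apart.

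A part of the known target genes of RA rose in this leukaemia. Of 22 measured retinoid targets 7 were called higher, 1 lower and 14 were not called, with a median change of 0.29. Over all genes 3.81% were called higher and 2.96% lower. Cyp26a1 stood at 5.15, 5.40, 5.29 and 5.05 on the untreated arrays and at 8.76, 9.94, 8.06 and 9.80 on the RA arrays. The groups did not overlap, and Cyp26a1 rose 15.1-fold (3.92 ± 0.61, limma adjusted p = 3.17e-05, exact two-sided permutation p = 0.0286 over the 8 arrays, the smallest that 4 against 4 arrays can give). Its level was already 8.90, 8.31, 8.36 and 8.98 on the 4 RA arrays at 6 h, and the difference between the times was not called (0.51 ± 0.61, adjusted p = 0.797).

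Stra8, which germ cells need to enter meiosis and which was named for its induction by RA, stood at 4.52, 4.48, 4.61 and 4.55 without and 6.04, 7.44, 5.71 and 6.30 with RA. All 4 RA arrays lay above the untreated ones, a rise of 1.83 ± 0.22 (adjusted p = 4.5e-07). Dhrs3, an enzyme that reduces retinal back to retinol, stood at 8.55, 8.46, 7.77 and 8.42 without RA, where untreated 12 h array 1 was low, and at 9.53, 10.61, 9.70 and 10.14 with RA. It rose by 1.70 ± 0.22 (adjusted p = 1.94e-06). Tgm2, a transglutaminase that crosslinks proteins, rose by 1.39 ± 0.20, from 6.64 to 7.35 without RA to 7.73 to 9.04 with RA. Ltb4r1, the leukotriene B4 receptor that guides neutrophils, rose by 1.27 ± 0.20, and Cebpe, the transcription factor of late granulocyte development, by 0.71 ± 0.11. Rarb, the retinoic acid receptor beta, went from 5.55 to 5.73 without RA to 5.97 to 6.10 with RA (0.41 ± 0.10, adjusted p = 0.00795), and its call was lost without untreated 12 h array 2 (0.37).

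The alpha receptors of both families fell. Rara was the member called lower: it stood at 9.32, 9.31, 8.83 and 9.24 without RA and 8.57, 8.86, 8.49 and 8.77 with it, a change of -0.50 ± 0.10 (adjusted p = 0.00142), and untreated 12 h array 1 (8.83) lay below RA array 2 (8.86). Rxra, the retinoid X receptor alpha that pairs with it, stood at 9.42, 9.28, 9.34 and 9.23 without and 8.56, 8.73, 8.42 and 8.60 with RA, with no overlap between the groups, and fell by 0.74 ± 0.11 (adjusted p = 1.47e-05). Of 22 genes of retinoid metabolism, binding and receptors 4 were called higher and 1 lower (median 0.03), against 3.81% and 2.96% of all genes. The 4 included the retinol dehydrogenases Rdh12 (0.68 ± 0.15) and Rdh11 (0.44 ± 0.10). Zbtb16, the mouse gene of the PLZF part, lay at 9.90 to 10.20 on untreated and 9.54 to 10.15 on RA arrays, and its change was not called (-0.30 ± 0.17, adjusted p = 0.385). Whether the probe sets of Zbtb16 and Rara read the fusion transcript was not tested. Both lay higher on untreated PLZF/RARA than on untreated PML/RARA arrays, where Zbtb16 ran from 8.84 to 9.56 (median 9.18) and Rara from 7.73 to 8.11 (median 7.86).

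**Figure D1:**
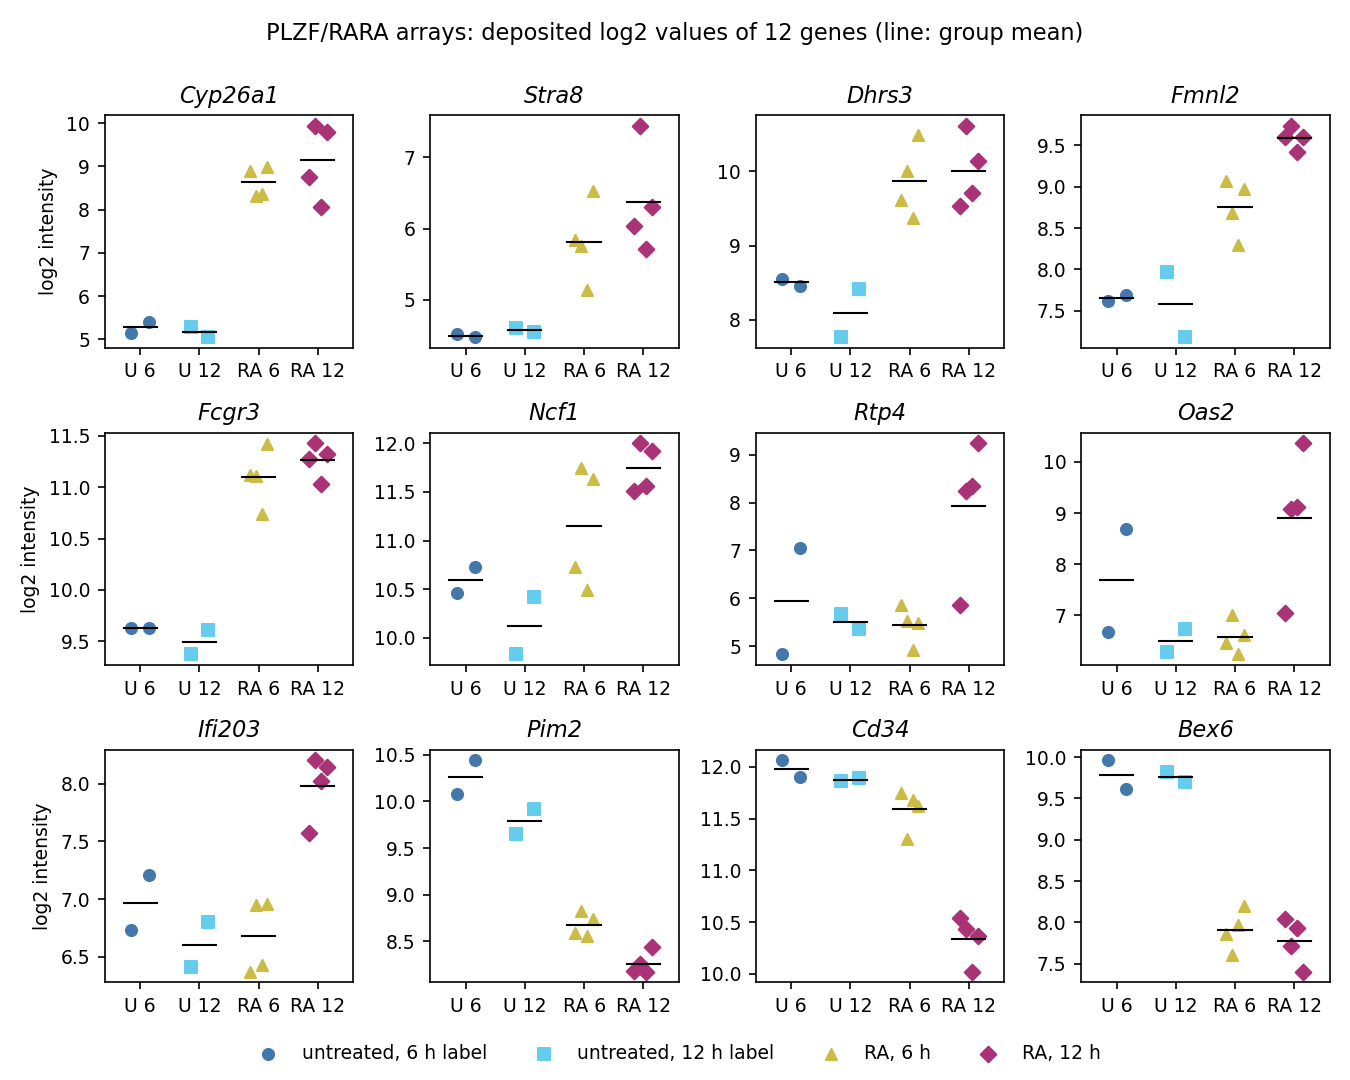
Log2 intensities of 12 genes on the 12 PLZF/RARA arrays, 1 point per array with the group mean as a line, for untreated arrays labelled 6 h and 12 h (U 6, U 12) and RA arrays at 6 h and 12 h. Cyp26a1, Stra8 and Fcgr3 were already high at 6 h, and Cd34 fell mainly between the times. Rtp4, Oas2 and Ifi203 were higher with RA at 12 h than at 6 h on average. In Rtp4 and Oas2, RA 12 h array 1 lay near the highest RA 6 h array. The vertical axes differ and do not start at 0.

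Interferon-induced antiviral genes had the highest share of members called at 12 h among the lists counted. Of 41 measured members 34 were called higher and 0 lower, against 3.81% higher among all genes, with a median of 0.72 and changes from 0.09 to 2.19. All 41 estimates were above 0. In 17 members the 4 RA arrays all lay above the 4 untreated arrays, as they did in 4.86% of all genes. At 6 h, against the same untreated arrays, 0 of the 41 were called by limma in either direction (4 at unadjusted p below 0.05, median 0.04), where 2.47% of all genes were called higher and 1.2% lower.

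Ddx60, a helicase of antiviral defence, stood at 5.57, 6.51, 6.02 and 5.81 without RA and at 7.03, 8.13, 8.14 and 8.82 with RA. The groups did not overlap, and the rise was 2.05 ± 0.25 (adjusted p = 1.14e-06). Rtp4, an interferon-induced chaperone of receptors, stood at 4.83, 7.06, 5.67 and 5.36 without and 5.86, 8.24, 8.35 and 9.24 with RA. Here untreated 6 h array 2 was above RA array 1, the other 3 RA arrays were above all untreated ones, and the rise was 2.19 ± 0.39 (adjusted p = 0.000249, exact permutation p = 0.0571). Oas2, an oligoadenylate synthetase that activates RNA decay on viral RNA, showed the same 2 arrays out of line at 6.68, 8.69, 6.28 and 6.72 without and 7.05, 9.07, 9.11 and 10.37 with RA (1.81 ± 0.37, adjusted p = 0.00117).

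Its relatives Oas3 (1.62 ± 0.30) and Oasl2 (1.84 ± 0.33) rose, as did Usp18, a protease that removes ISG15 and dampens the interferon receptor (1.97 ± 0.36). Ifit1, which binds foreign RNA, rose by 1.54 ± 0.30 and Ifi27l2a by 1.31 ± 0.22. In these 5 genes, too, the groups overlapped. Ifi203, of a family of nucleic acid sensors, was more even across arrays. It stood at 6.73, 7.21, 6.41 and 6.80 without RA and at 7.57, 8.20, 8.02 and 8.14 with RA, with no overlap, and rose by 1.20 ± 0.15 (adjusted p = 2.08e-06). Zbp1, a sensor of Z-form nucleic acid (1.25 ± 0.18), Parp14, an ADP-ribosyltransferase (1.18 ± 0.17), the ubiquitin ligase Trim30a (0.94 ± 0.14), Epsti1 (0.78 ± 0.12) and the helicase Znfx1 (0.72 ± 0.11) also rose without overlap.

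The mean log2 level of the 41 genes was 7.42 and 7.96 on the untreated 6 h arrays, 7.48 and 7.47 on the untreated 12 h arrays, and 7.88, 8.47, 8.57 and 8.93 on the RA 12 h arrays. RA 12 h array 1 thus lay just below untreated 6 h array 2 and above the other 3 untreated arrays. On the RA arrays at 6 h the mean ran from 7.45 to 7.72. On PML/RARA arrays it was 8.67 to 9.19 without RA and 9.29 to 9.45 with RA at 12 h, so that the PLZF/RARA arrays had the lower means in either state. The number called higher was 33 without untreated 6 h array 2 and 35 without RA array 1, ran from 27 to 35 with each array left out in turn, and was 15 with the 12 PLZF/RARA arrays alone in the fit. The mean of 13 T and NK cell markers was 6.33 to 6.65 without and 6.64 to 6.97 with RA, and the part of these cells in the interferon response was not tested.

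**Figure D2:**
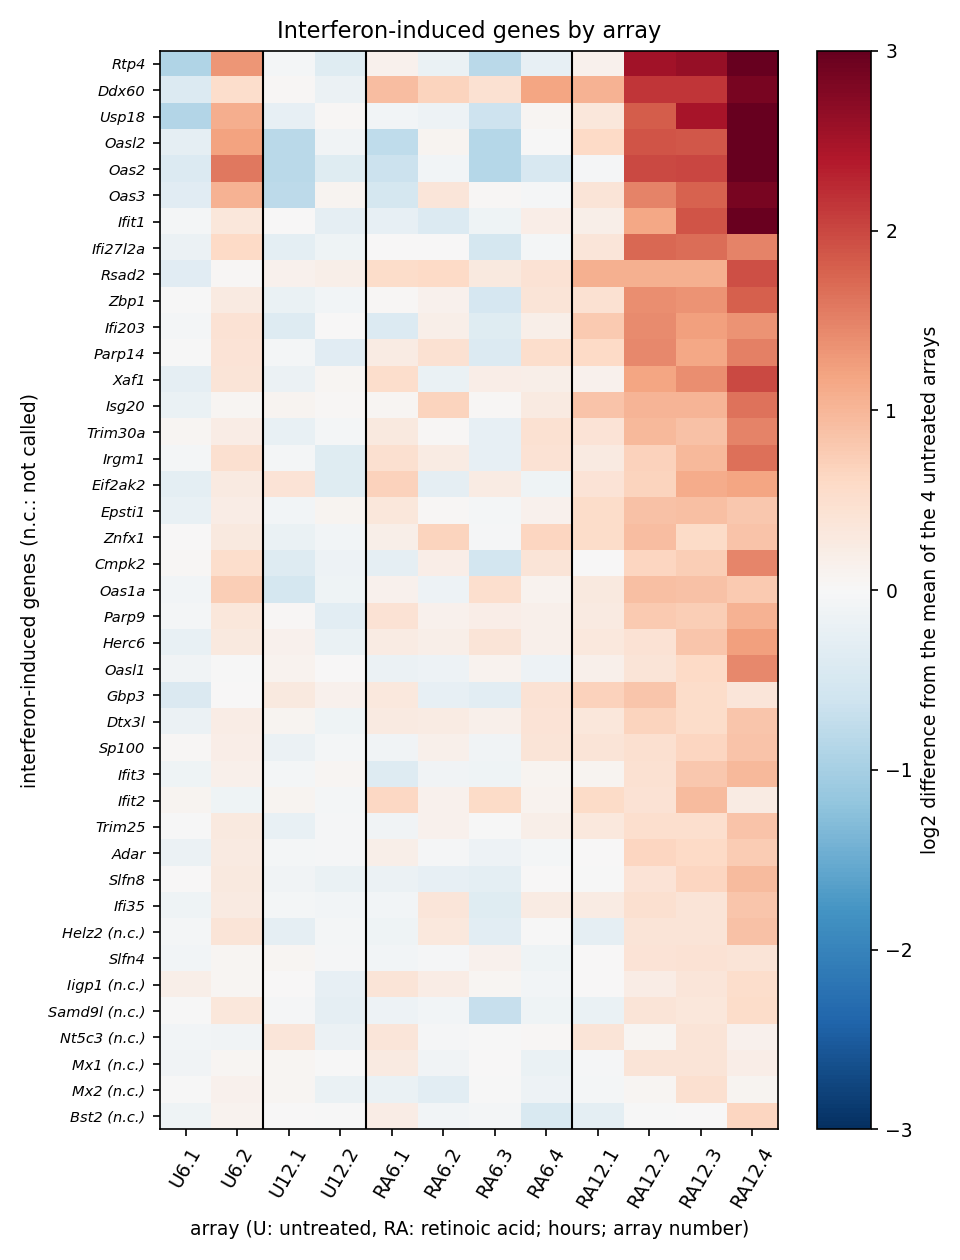
Interferon-induced genes (rows, n.c. where not called) on the 12 PLZF/RARA arrays (columns), coloured by the log2 difference of each array from the mean of the 4 untreated arrays, with the scale ending at 3 above and below. The rise is seen on RA 12 h arrays 2 to 4, is weaker on RA 12 h array 1, and untreated 6 h array 2 is above the other untreated arrays in most rows.

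Of 29 ligands, receptors, sensors and transcription factors of the interferon pathway, 9 were called higher and 2 lower (median 0.12), against 3.81% and 2.96% of all genes. Irf1, a transcription factor that activates many of these genes, stood at 8.16, 8.40, 7.69 and 7.86 without RA and 9.0, 9.83, 9.31 and 9.32 with RA, and rose by 1.34 ± 0.17 (adjusted p = 1.65e-06). It was already at 9.73, 9.19, 9.52 and 9.46 on the RA arrays at 6 h. The cytosolic RNA sensors rose together, with Ifih1 (MDA5) at 1.09 ± 0.17, Dhx58 (LGP2) at 1.01 ± 0.17 and Ddx58 (RIG-I) at 0.80 ± 0.14. Ifngr1, a chain of the interferon gamma receptor, rose by 0.55 ± 0.09.

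Irf7, the factor that amplifies the type I interferon response, stood at 7.55, 8.77, 7.07 and 7.48 without and 7.39, 8.92, 9.19 and 10.48 with RA, with RA array 1 among the untreated values. It was called at 1.28 ± 0.34 (adjusted p = 0.0155), but not without RA array 4 (0.78) or RA array 3 (1.21), nor without untreated 6 h array 1 (0.97) or untreated 12 h array 1 (1.18). The 2 genes called lower were Socs1, a feedback inhibitor of cytokine receptors, and Sting1, the adaptor of cytosolic DNA sensing. Socs1 went from 9.12, 9.31, 9.27 and 9.57 to 8.55, 8.62, 8.44 and 8.56 (-0.77 ± 0.11, adjusted p = 1.57e-05), with no overlap. Sting1 changed by -0.59 ± 0.14 (adjusted p = 0.00522), a call lost without untreated 12 h array 2 (-0.50) or untreated 6 h array 1 (-0.52).

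Genes of antigen presentation on MHC class I rose as well. Of 19 measured MHC genes 9 were called higher and 0 lower (median 0.25), against 3.81% and 2.96% of all genes. These 9 were also the members of the 19 in which the RA arrays all lay above the untreated ones, as they did in 4.86% of all genes. At 6 h, against the same untreated arrays, 6 of the 19 were already called higher, where 2.47% of all genes were. Between the treated times 0 differed by limma (6 at unadjusted p below 0.05, median 0.07). The 3 immunoproteasome subunits, which replace the standard ones to cut peptides for MHC class I, were among the 9 called higher at 12 h. Psmb10 went from 8.41, 8.56, 8.61 and 8.58 to 9.38, 9.69, 9.57 and 9.39 (0.97 ± 0.14, adjusted p = 8.37e-06), Psmb8 rose by 0.61 ± 0.09 and Psmb9 by 0.57 ± 0.09. Psme2, a proteasome activator (0.50 ± 0.08), the peptide transporter Tap2 (0.49 ± 0.09), the peptide trimming enzyme Erap1 (0.55 ± 0.10) and H2-Q4, an MHC class I gene (0.60 ± 0.12), also rose.

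Neutrophil maturation genes rose in part, where 3.81% of all genes were called higher and 2.96% lower. Of 25 secondary and tertiary granule genes 9 were called higher and 0 lower (median 0.37), of 31 receptors of phagocytes 8 higher and 3 lower (median 0.24), and of 14 genes of the phagocyte oxidase and killing enzymes 7 higher and 1 lower (median 0.33). The 16 primary granule genes gave 3 higher and 2 lower (median 0.07). The mean of the secondary and tertiary granule list was 10.13 on untreated 12 h array 1, 10.58 to 10.85 on the other untreated arrays and 10.85 to 11.16 on the RA arrays. The secondary and tertiary granule list gave 6 called higher without untreated 12 h array 1, RA array 2 or untreated 6 h array 1. Without the same arrays in turn the oxidase list gave 4, 4 and 3. Down calls were lost as well: the primary granule list gave 1 without untreated 12 h array 1, RA arrays 1, 3 or 4, or untreated 6 h array 1, and the receptor list 1 without RA array 2 or untreated 6 h array 1.

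Among the receptors, Fcgr3, a receptor for IgG, stood at 9.63, 9.63, 9.37 and 9.61 without RA and at 11.27, 11.43, 11.03 and 11.32 with RA. The untreated arrays were close together and far below the RA arrays, a rise of 1.70 ± 0.15 (adjusted p = 1.13e-09). Fcgr4, another IgG receptor, went from 6.42, 6.71, 6.58 and 6.51 to 8.48, 8.27, 7.98 and 8.04 (1.64 ± 0.23, adjusted p = 1.07e-05). Il1rap, the accessory chain of the interleukin 1 receptor (0.92 ± 0.10), and Clec7a, the beta-glucan receptor dectin (0.94 ± 0.16), rose. So did Treml2, a receptor of the TREM family (1.70 ± 0.17), and Adgre5 (CD97), an adhesion receptor of leukocytes (1.64 ± 0.14).

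The integrin chains Itgb2 (CD18, 1.08 ± 0.14) and Itgam (CD11b, 0.82 ± 0.13), which let neutrophils adhere and are stored in granules, rose without overlap. Padi4, which citrullinates histones, went from 7.79 to 8.66 without RA to 9.18 to 9.81 with RA (1.19 ± 0.24, adjusted p = 0.00109), and Hp (haptoglobin) rose by 0.64 ± 0.12. Not every gene of the list passed. Among those that did not were Ltf (lactoferrin, 0.37 ± 0.19, adjusted p = 0.335), Camp (cathelicidin, 0.45 ± 0.19, adjusted p = 0.187) and Ngp (0.09 ± 0.07, adjusted p = 0.604). The Ltf difference was 0.15 without untreated 12 h array 1, where Ltf stood at 11.03, and 0.58 without untreated 12 h array 2.

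Of the primary granule genes, the protease Prtn3 went from 10.49, 10.52, 10.08 and 10.67 to 11.26, 11.32, 11.46 and 11.59 and rose by 0.97 ± 0.14 (adjusted p = 1.42e-05). Neutrophil elastase (Elane) was not called (0.29 ± 0.14, adjusted p = 0.278), with untreated 12 h array 1 at 11.54 against 12.36 to 12.46 on the other untreated arrays, and it became called without untreated 12 h array 2 (0.50). Clec11a, a growth factor of progenitors, fell from 11.06 to 11.14 without RA to 10.03 to 10.51 with RA (-0.80 ± 0.15, adjusted p = 0.000476). Mpo, myeloperoxidase, had a small decrease (-0.22 ± 0.06, adjusted p = 0.0243), lost without untreated 12 h array 1 (-0.19), untreated 6 h array 1 (-0.19) or RA arrays 1 (-0.20), 3 (-0.22) or 4 (-0.18).

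The cytosolic and membrane subunits of the phagocyte NADPH oxidase moved the same way. Ncf1 stood at 10.46, 10.73, 9.83 and 10.42 without RA and at 11.51, 12.00, 11.56 and 11.92 with RA (1.39 ± 0.20, adjusted p = 1.22e-05). Ncf4 rose by 1.07 ± 0.15 and Cyba by 0.39 ± 0.09, while Hvcn1, the proton channel that balances the charge of the oxidase, fell by 0.52 ± 0.12 (adjusted p = 0.00614).

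Of 31 transcription factors of myeloid differentiation 8 were called higher and 1 lower (median 0.13), against 3.81% and 2.96% of all genes. The number called higher was 5 without untreated 12 h array 1 or RA array 2, and 4 without untreated 6 h array 1. Besides Cebpe, Cebpa, which starts the granulocyte programme, went from 9.79, 9.65, 9.77 and 9.81 to 10.36, 10.82, 10.24 and 10.74 (0.79 ± 0.12, adjusted p = 3.74e-05). Trib1, a pseudokinase that marks C/EBP alpha for degradation, rose by 0.74 ± 0.14. The member called lower was Runx1, a core binding factor of haematopoiesis (-0.48 ± 0.10, adjusted p = 0.00157), with untreated 12 h array 1 (11.71) inside the range of the RA arrays. Without untreated 12 h array 1 there were 2 lower.

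**Figure D3:**
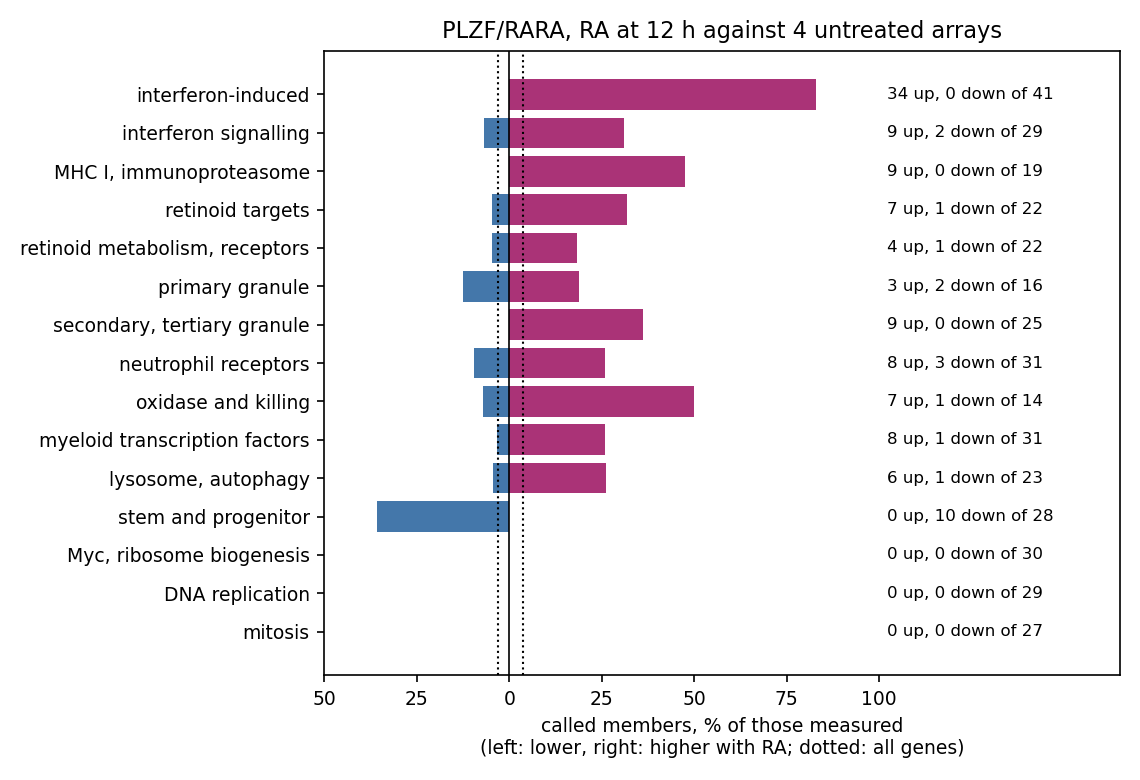
Share of the measured members of 15 gene lists called higher (right) or lower (left) with RA at 12 h in PLZF/RARA leukaemia, in percent, with the counts at the right and dotted lines at the shares over all genes (3.81% and 2.96%). The interferon-induced list extends farthest to the right, stem and progenitor genes extend to the left only, and the Myc, DNA replication and mitosis lists have no bar.

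Stem and progenitor genes were called in the falling direction only. Of 28 members 0 were called higher and 10 lower, against 2.96% lower among all genes, and the median over the list was -0.10. The list was written with the fall of Bex6 and Pim2 in these data known. Cd34, the surface sialomucin of progenitors, stood at 12.06, 11.90, 11.86 and 11.89 without RA and at 10.54, 10.43, 10.02 and 10.37 with RA. The groups were far apart, and Cd34 fell by 1.59 ± 0.16 (adjusted p = 2.93e-08). On the RA arrays at 6 h it was still at 11.75, 11.30, 11.68 and 11.62, and the step from 6 h to 12 h was called (-1.24 ± 0.16, adjusted p = 4.14e-05).

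Pim2, a survival kinase, stood at 10.08, 10.44, 9.65 and 9.92 without and 8.18, 8.25, 8.17 and 8.44 with RA, a change of -1.77 ± 0.11 (adjusted p = 5.72e-13). Bex6 stood at 9.96, 9.62, 9.82 and 9.70 without and 8.04, 7.71, 7.93 and 7.40 with RA (-2.01 ± 0.22, adjusted p = 1.42e-07). Both were already low on the RA arrays at 6 h, Pim2 at 8.59, 8.82, 8.56 and 8.74 and Bex6 at 7.86, 7.61, 7.97 and 8.20. Adgrg1 (GPR56), an adhesion receptor of stem cells, fell by 1.04 ± 0.13, and Tespa1, a signalling protein of thymocytes, fell by 1.23 ± 0.25. Gata2, a transcription factor of stem cells and mast cells, fell by 0.90 ± 0.18, Nt5e (CD73) fell by 0.90 ± 0.19 and Muc13, a membrane mucin of progenitors, fell by 0.67 ± 0.14. Angpt1, the ligand of the Tie2 receptor, stood at 6.79, 6.88, 7.69 and 6.62 without and 5.20, 6.15, 6.31 and 5.12 with RA and fell by 1.30 ± 0.28 (adjusted p = 0.00229).

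Kit, the receptor for stem cell factor, was lower on each RA array (10.20 to 10.50) than on the untreated arrays (10.67 to 10.79), but its difference was not called (-0.30 ± 0.18, adjusted p = 0.443). That SE is from the fit of all 36 transgenic arrays. The exact two-sided permutation p over the 8 arrays was 0.0286, the smallest that 4 against 4 arrays can give. Bcl2, which blocks mitochondrial cell death, went from 11.32, 11.27, 11.29 and 11.31 to 10.63, 10.45, 10.54 and 10.58 and fell by 0.75 ± 0.11 (adjusted p = 1.18e-05). The stem and progenitor list gave between 8 and 11 called lower under the alternative settings and single arrays left out.

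**Figure D4:**
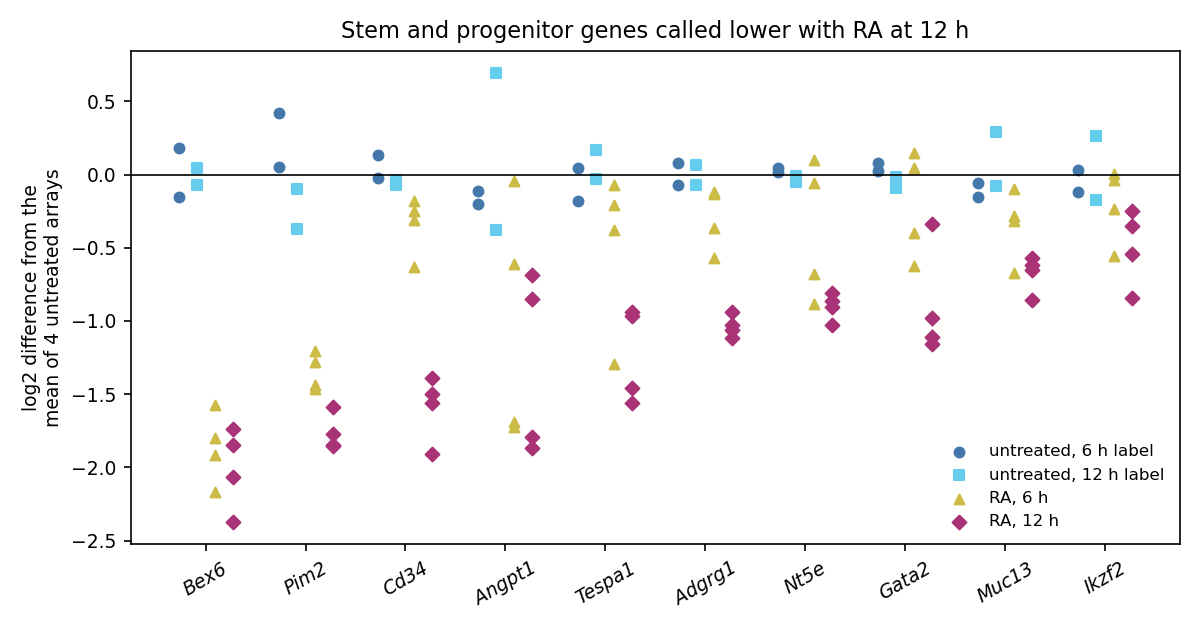
The 10 stem and progenitor genes called lower with RA at 12 h, as the log2 difference of each of the 12 PLZF/RARA arrays from the mean of the 4 untreated arrays. The RA 12 h arrays lie below the untreated arrays in each gene drawn, and Cd34, Adgrg1 and Gata2 lie lower at 12 h than at 6 h on average.

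Genes of growth and division showed no called change with RA at 12 h in this leukaemia. Of 29 DNA replication genes limma called 0 in either direction (1 at unadjusted p below 0.05, median 0.02), of 27 mitosis genes 0 (2 at unadjusted p below 0.05, median 0.05) and of 30 Myc and ribosome biogenesis genes 0 (5 at unadjusted p below 0.05, median -0.04). Myc itself lay at 12.34, 12.36, 12.01 and 12.35 without and 12.31, 12.20, 12.40 and 12.11 with RA (-0.01 ± 0.11, adjusted p = 0.989). Mcm10, a replication initiation factor, had 8.61 to 8.95 without and 8.66 to 9.27 with RA. Rrm2, which makes deoxynucleotides, had 10.80 to 10.91 and 10.76 to 11.19, and Top2a, the topoisomerase of dividing cells, 10.66 to 10.92 and 10.80 to 11.13. In each of these the groups overlapped.

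In transgenic PML/RARA leukaemia most members of the same lists fell at 12 h against untreated arrays of both time labels, where 11.9% of all genes were called higher and 15.1% lower. There 27 replication, 19 mitosis and 24 Myc and ribosome biogenesis genes were called lower. The difference between the fusions (the RA effect with PML/RARA minus that with PLZF/RARA) was tested for every gene, and 813 genes were called higher (4.08%) and 939 lower (4.71%). Of the replication genes 22 were called lower and 0 higher (median difference -0.62). Of the Myc and ribosome biogenesis genes 13 were lower and 1 higher (median -0.39), and of the mitosis genes 9 lower and 0 higher (median -0.39), where the median over all genes was 0.036. The marrow of the 2 leukaemias also differed in erythroid markers: the mean of 9 such genes was 6.37 to 6.55 on untreated and 6.27 to 7.04 on RA arrays with PLZF/RARA, and 8.09 to 9.93 and 8.58 to 10.63 with PML/RARA, and the part of these cells in the difference was not tested. Mcm10 differed by -0.97 ± 0.16 (adjusted p = 0.00021), Rrm2 by -0.83 ± 0.15 (adjusted p = 0.000517) and Top2a by -0.70 ± 0.14 (adjusted p = 0.0017). Myc differed by -0.53 ± 0.14 (adjusted p = 0.015), a call lost without untreated 12 h array 1 (-0.44) or RA array 3 (-0.48).

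The mitosis count depended on single arrays. It was 2 without PLZF/RARA RA arrays 1 or 3, untreated 12 h array 2 or untreated 6 h array 2, and 5 without PML/RARA RA arrays 4 or 7, untreated 12 h array 2 or untreated 6 h array 4. The Myc and ribosome biogenesis count was 6 without PLZF/RARA RA array 1, 7 without untreated 12 h array 2, and 8 without RA array 3 or untreated 6 h array 1, while replication stayed between 17 and 24. With untreated arrays of the 12 h label only, the 3 counts were 10 for replication, 2 for Myc and ribosome biogenesis and 0 for mitosis. The total of genes called for the difference between the fusions was 962 without PLZF/RARA untreated 12 h array 2, 1046 without RA array 1 and 1082 without RA array 3, against 1752 with every array.

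**Figure D5:**
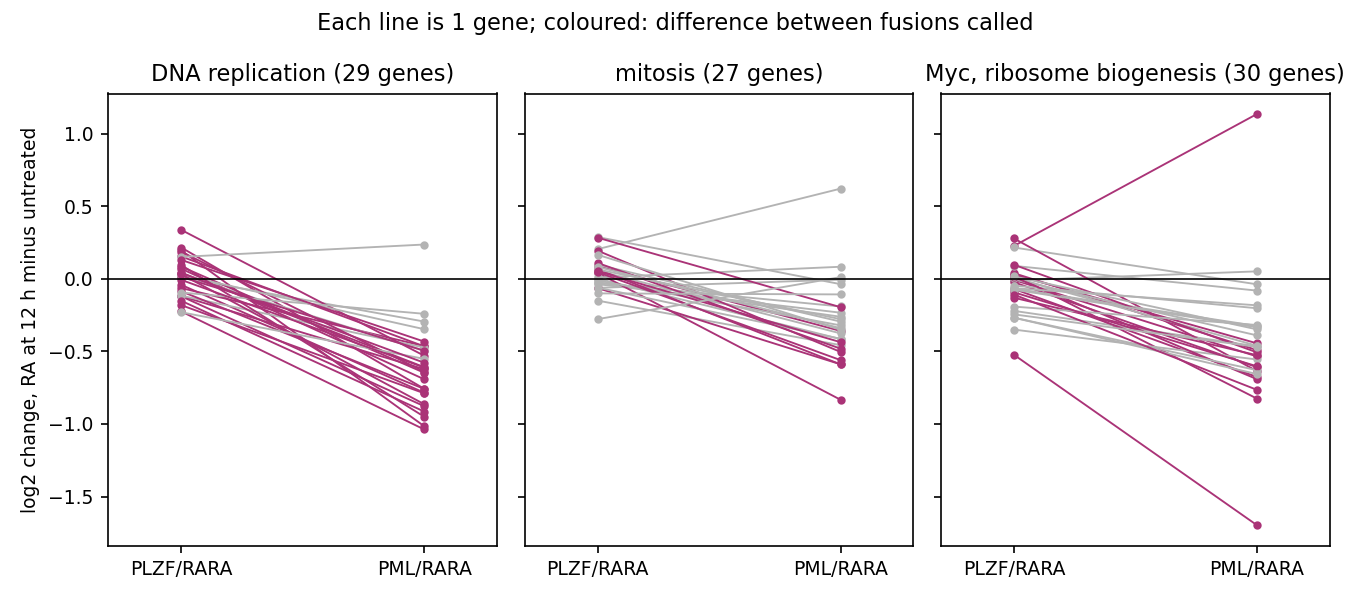
Log2 change with RA at 12 h of the measured DNA replication, mitosis and Myc and ribosome biogenesis genes in PLZF/RARA (left) and PML/RARA (right) leukaemia, 1 line per gene, coloured where the difference between the fusions was called. The PLZF/RARA values lie around 0 and most PML/RARA values below 0. The gene that rises by over 1 in PML/RARA and the gene that falls most are exceptions to the bundle in the Myc and ribosome biogenesis panel.

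Called genes were ranked by their change, with some kinds of gene name left out as listed under the processing. The 15 largest rises in that ranking were Cyp26a1, Rtp4, Ocm, Ddx60, Usp18, Fmnl2, Oasl2, Stra8, Oas2, Adssl1, Fcgr3, Dhrs3, Treml2, Fcgr4 and Adgre5. Fmnl2, a formin that elongates actin filaments, stood at 7.62, 7.69, 7.97 and 7.18 without RA and at 9.60, 9.74, 9.42 and 9.60 with RA. The RA arrays were close together and above all untreated arrays (1.97 ± 0.16, adjusted p = 4.48e-10). Ocm (oncomodulin), a calcium-binding protein, went from 5.05 to 5.70 without RA to 6.46 to 8.39 with RA (2.08 ± 0.40), Adssl1, an enzyme of AMP synthesis, from 9.33 to 9.42 without RA to 10.91 to 11.24 with RA (1.72 ± 0.19), and Tubb6, a beta tubulin, from 7.47 to 7.56 without RA to 8.88 to 9.05 with RA (1.45 ± 0.21).

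The 15 largest falls in the same ranking were Bex6, Mc5r, Pim2, Scin, Cd34, Mei4, Cdh1, Bves, Cdh3, Tox, Milr1, Angpt1, Cd244a, Kcnj2 and Fads3. In each the RA arrays lay below the untreated ones. The genes were picked by this same comparison, which favours such a gap, so it is not separate evidence. Scin (scinderin), which severs actin filaments, stood at 7.63, 7.77, 7.37 and 7.74 without and 6.15, 6.28, 5.70 and 5.41 with RA (-1.74 ± 0.29, adjusted p = 8.9e-05). Mei4, a meiotic recombination factor, stood at 7.63, 7.08, 6.94 and 7.19 without and 5.65, 5.40, 5.70 and 5.98 with RA (-1.53 ± 0.13, adjusted p = 4.48e-10), and Tox, a chromatin protein of lymphoid development, at 9.48, 9.29, 9.66 and 9.43 without and 8.22, 8.15, 7.99 and 8.21 with RA (-1.32 ± 0.19, adjusted p = 1.22e-05). The melanocortin receptor Mc5r fell by 1.78 ± 0.23, and the cadherins Cdh1 (-1.51 ± 0.31) and Cdh3 (-1.46 ± 0.20), which join cells, fell as well. Milr1, an inhibitory receptor of mast cells, fell by 1.30 ± 0.21 and Cd244a, a receptor of NK cells, fell by 1.29 ± 0.17. The membrane protein Bves (-1.50 ± 0.22), the potassium channel Kcnj2 (-1.27 ± 0.26) and Fads3, of the fatty acid desaturase family (-1.27 ± 0.21), completed the group.

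For 5 of the 15 rises and 6 of the 15 falls the RA effect differed from that in PML/RARA leukaemia. The genes were picked by their RA effect with PLZF/RARA, which is also part of that difference. These counts therefore cannot be set against the 4.08% higher and 4.71% lower over all genes. Of the 5 rises, Fcgr4 had the larger effect with PML/RARA (a difference between the fusions of 2.17). The call of Rtp4 was lost in 19 of 24 fits with 1 array left out. Fmnl2 was another: its RA effect differed by -1.87 ± 0.20 (adjusted p = 2.63e-07), and on PML/RARA arrays it lay at 6.68 to 7.18 (median 6.92) without RA and at 6.81 to 7.31 (median 6.94) with RA. Stra8 behaved alike, with 4.18 to 4.60 (median 4.31) without and 4.16 to 4.54 (median 4.39) with RA on the PML/RARA arrays and a difference of -1.79 ± 0.27 (adjusted p = 4.2e-05). Of the falls, Scin (1.71 ± 0.36, adjusted p = 0.00224), Mei4 (1.59 ± 0.16, adjusted p = 7.79e-08) and Tox (1.30 ± 0.24, adjusted p = 0.000517) differed. On untreated PML/RARA arrays Scin lay at 4.51 to 5.03 (median 4.80), Mei4 at 4.69 to 5.23 (median 4.93) and Tox at 6.13 to 6.70 (median 6.56), below the untreated PLZF/RARA arrays in each case, and their change there was not called.

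Other genes responded to RA with PML/RARA and not, by this test, with PLZF/RARA. F3 (tissue factor), which starts coagulation, lay at 5.43, 5.48, 5.28 and 5.81 without and 5.59, 5.42, 5.28 and 5.64 with RA in PLZF/RARA leukaemia, and at 6.47 to 9.69 (median 8.73) on the PML/RARA RA arrays against 5.11 to 5.63 (median 5.35) without RA, a difference of 3.29 ± 0.60 (adjusted p = 0.00049). Suox, sulfite oxidase, lay at 7.58 to 8.36 without and 7.96 to 8.50 with RA (0.16 ± 0.38), and its difference between fusions was 2.89 ± 0.47 (adjusted p = 0.000139). The orphan receptor Nr4a1 had 6.79 to 6.96 without and 6.64 to 7.11 with RA, with a difference of 1.99 ± 0.27 (adjusted p = 9.94e-06). Pml, the partner in the other fusion, was not called here (0.32 ± 0.13, adjusted p = 0.162) and differed between the fusions by 0.92 ± 0.16 (adjusted p = 0.000284). Kit differed by -0.92 ± 0.23 (adjusted p = 0.00865). Of the 25 secondary and tertiary granule genes 8 had a larger and 1 a smaller RA effect with PML/RARA. Of the 14 oxidase genes 5 had a larger one, among them Ncf1 (1.27 ± 0.25, adjusted p = 0.00115). Over all genes 4.08% were called with a larger and 4.71% with a smaller effect. Cyp26a1 did not differ by this test (0.30 ± 0.76, adjusted p = 0.861), nor did Fcgr3 (0.26 ± 0.18, adjusted p = 0.431). Pecam1, an adhesion molecule, rose with PLZF/RARA (0.62 ± 0.11, adjusted p = 0.000354) and fell with PML/RARA (-0.51 ± 0.08), a difference of -1.13 ± 0.14 (adjusted p = 3.62e-06).

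Of the 41 interferon-induced genes 26 were called higher with PML/RARA (median 0.50), where 11.9% of all genes were. Between the fusions 7 of the 41 differed, all with the lower RA effect in PML/RARA, against 4.71% of all genes. Ifi203 was one, with 8.32 to 9.16 (median 8.82) on untreated and 8.43 to 8.92 (median 8.81) on RA arrays of PML/RARA and a difference of -1.25 ± 0.19 (adjusted p = 6.72e-05). Of the 22 retinoid targets 8 had a larger and 2 a smaller RA effect with PML/RARA, against 4.08% and 4.71% of all genes. Tests of the difference between fusions and of the difference between times use the same PLZF/RARA RA 12 h arrays as the main comparison.

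The treated arrays at 12 h were also compared with the treated arrays at 6 h. The means compared do not involve the untreated arrays, while the spread came from the fit of all 36 transgenic arrays. In all 121 genes were called higher (0.607%) and 127 lower (0.637%) at 12 h. Of the 41 interferon-induced genes 24 were higher at 12 h and 0 lower (median 0.67, against -0.042 over all genes). Rtp4 stood at 5.87, 5.53, 4.92 and 5.49 at 6 h and differed by 2.47 ± 0.39 (adjusted p = 0.000689), Oas2 stood at 6.45, 7.0, 6.23 and 6.62 and differed by 2.33 ± 0.37 (adjusted p = 0.000632), and Ifi203 at 6.37, 6.95, 6.43 and 6.96, a difference of 1.31 ± 0.15 (adjusted p = 1.69e-05). In Oas2 and Ifi203 the 6 h arrays lay below all 4 RA 12 h arrays, and in Rtp4 1 of them reached the level of RA 12 h array 1. Irf1 did not differ between the times (-0.11 ± 0.17, adjusted p = 0.852).

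Of the 28 stem and progenitor genes 0 were higher at 12 h than at 6 h and 4 lower, against 0.637% lower among all genes. Cd34 and Adgrg1 (-0.74 ± 0.13, adjusted p = 0.00279) were among the 4. Fmnl2 rose further (0.83 ± 0.16, adjusted p = 0.00513). Ttyh2, of a family of chloride channels, ran the other way: it stood at 11.03, 9.60, 11.02 and 9.74 on the RA arrays at 6 h and at 9.12, 9.16, 9.16 and 9.22 at 12 h, close to the untreated 9.05 to 9.30 (-1.18 ± 0.20, adjusted p = 0.00192). Spns2, the exporter of sphingosine phosphate, was also highest at 6 h, with 8.51 to 9.45 at 6 h, 7.73 to 8.26 at 12 h and 7.70 to 7.85 without RA (-0.86 ± 0.12, adjusted p = 0.000173). Shank1, a scaffold protein of synapses, was lower at 12 h than at 6 h (-0.82 ± 0.10, adjusted p = 1.69e-05) and than untreated (-0.81 ± 0.10).

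With single arrays left out, this comparison gave 84 calls without RA 12 h array 3, 147 without RA 12 h array 1, 152 without RA 6 h array 1, 157 without RA 6 h array 3, 386 without RA 6 h array 4 and 574 without RA 6 h array 2, against 248 with every array. The interferon-induced genes gave 17 to 30 of 41. With the 12 PLZF/RARA arrays alone in the fit, 3 genes were called in all, 1 of them interferon-induced.

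The untreated arrays of the 2 time labels, used together as controls, were compared as well. Only Tm4sf19, a membrane protein of the L6 family, was called (1 gene, 0.00502%, with 1555 at unadjusted p below 0.05), at 7.12, 7.24, 7.92 and 8.0 (0.78 ± 0.14, adjusted p = 0.0497). With 2 against 2 arrays this comparison can show large differences only. The call was absent without untreated 12 h array 1 or untreated 6 h array 1, and 33 genes were called without untreated 12 h array 2. With RA, Tm4sf19 lay below all untreated arrays (6.73 to 7.09).

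Markers of other marrow cells were counted in the same comparison. Over 8 lists with 94 measured marker genes 4 were called higher and 3 lower, where 3.81% and 2.96% of all genes were, so the marker genes as a whole were called about as often as any gene. The erythroid (9 genes), B cell (10) and eosinophil, basophil and mast cell (14) lists had none called by limma (0, 1 and 4 at unadjusted p below 0.05). In the T and NK cell list (13 genes) 2 were higher and 1 lower, with Ncr1, a receptor of NK cells (0.90 ± 0.21, adjusted p = 0.00516), and the granule protease Gzma (0.80 ± 0.25, adjusted p = 0.0492) higher and Thy1 lower (-0.55 ± 0.11). The Ncr1 call was lost without RA array 2 (0.68) or untreated 6 h array 2 (0.75). The Gzma call was lost without untreated 12 h array 1 (0.59), untreated 6 h array 2 (0.46) or RA arrays 1 (0.75), 2 (0.65) or 4 (0.85).

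The monocyte and macrophage list (15 genes) gave 1 higher, the lipoprotein Apoe (0.57 ± 0.12), the stroma and endothelium list (13 genes) 1 higher, the leptin receptor Lepr (1.06 ± 0.23), and the dendritic cell list (11 genes) 1 lower, Cd209a (-0.73 ± 0.15). The monocyte count was 2 without untreated 12 h array 2 and 3 without RA array 4, and the stroma and dendritic counts were 2 each without untreated 12 h array 2. The megakaryocyte list (9 genes) gave 1 lower, the integrin Itga2b (-0.55 ± 0.17, adjusted p = 0.0439), a call kept only when RA array 2 was left out and otherwise lost with each array left out in turn (-0.59 to -0.44). The called fall was not shared by most of either list: 8 of the 9 megakaryocyte genes had an estimate above 0 (median 0.39), and 7 of the 11 dendritic cell genes (median 0.09). For monocytes and macrophages 9 of 15 were above 0 (median 0.03), and for stroma and endothelium 11 of 13 (median 0.33). The list means ran from 8.14 to 8.18 without and 8.08 to 8.41 with RA for monocytes and macrophages, from 6.72 to 7.36 and 7.12 to 7.77 for stroma and endothelium, from 6.46 to 6.49 and 6.34 to 6.56 for dendritic cells, and from 8.25 to 8.58 and 8.19 to 9.09 for megakaryocytes.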

How the data were processed

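The values are log2 intensities that the authors deposited, made with RMA in the affy package per the submitters' processing notes, and RMA subtracts background, quantile normalizes and summarises probes, so differences between arrays are relative to a common distribution. Each array listed 35556 probe sets without missing values, and no detection call or bead or probe count was used. Of these, 21789 carried 1 gene symbol in the platform annotation, 1621 several and 12146 were not listed; 19938 genes were tested, represented by the probe set of highest mean where a gene had several (998 genes), and 19855 were named through RefSeq.

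Here limma 3.58.1 (R 4.3.3) fitted all 36 transgenic arrays, with 1 coefficient for each of 8 groups and batch as a term (27 residual degrees of freedom, median residual SD 0.149), and adjusted p over all genes by the Benjamini-Hochberg method. Single values were also tested by an exact two-sided permutation test over the 8 arrays. The number of arrays limits the precision. The rule for named genes was the 15 largest rises and falls, the 10 largest of each direction between times and between fusions, the 5 largest between untreated times, up to 8 genes per list taken by the size of limma's statistic, and a fixed panel, from which the text names a part. Clone, predicted and RIKEN names, histone clusters and names that start with H2 were left out of the rankings. So were olfactory and vomeronasal receptors, and immunoglobulin and T cell receptor segments. Gene lists (34) were described by counts and medians only. Members, lists and tests were chosen with earlier results of these data known.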

Additional observations from a re-analysis of the deposited data

Results flagged for a closer look

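In 8 of 250 groups of 4 arrays checked for the genes named here, 1 array stood apart from the other 3 by Dixon's criterion, where chance gives about 1 in 20 groups. Untreated 12 h array 1 was that array in 6: it was low for Dhrs3 (7.77), Rara (8.83), Fcgr3 (9.37), Elane (11.54) and Ctsh (8.88), and apart for Myc (12.01). Untreated 12 h array 2 stood apart for Gadd45a (7.44), and RA 12 h array 2 was low for Kit (10.20).

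Between the treated times 248 genes were called, and 29 of the genes named here were among them. Higher at 12 h than at 6 h were the interferon-induced genes Rtp4 (2.47), Oas2 (2.33), Oasl2 (2.23), Usp18 (2.17), Ifit1 (1.69), Oas3 (1.66), Ifi27l2a (1.45), Ifi203 (1.31), Ddx60 (1.24), Zbp1 (1.23), Parp14 (0.97), Trim30a (0.80) and Epsti1 (0.67), all as log2 differences. The sensors and factors Irf7 (1.46), Ifih1 (0.75), Dhx58 (0.72) and Ddx58 (0.67), the nuclear body protein Sp100 (0.51), Fmnl2 (0.83) and Ncr1 (0.95) were higher too. Lower at 12 h were Cd34 (-1.24), Ttyh2 (-1.18), Spns2 (-0.86), Shank1 (-0.82), Adgrg1 (-0.74), Gata2 (-0.69), Bcl2 (-0.48), Rxra (-0.44) and Pim2 (-0.42). Of these 29, 19 kept their call with each of the 8 treated arrays left out in turn. The other 10 lost it in at least 1 of those fits: Rxra, Irf7, Ifih1, Dhx58, Ddx58, Sp100, Pim2, Gata2, Bcl2 and Ncr1.

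Between the fusions (PML/RARA minus PLZF/RARA) 1752 genes were called, and 46 of the genes named here were among them. The RA effect was higher with PML/RARA for F3 (3.29), Suox (2.89), Fcgr4 (2.17), Nr4a1 (1.99), Scin (1.71), Mei4 (1.59), Padi4 (1.56), Tox (1.30), Angpt1 (1.25), Ncf1 (1.27), Ltb4r1 (1.16), Sting1 (1.11), Milr1 (0.99), Pim2 (0.97), Socs1 (0.95), Pml (0.92), Itgb2 (0.87), Cebpe (0.81), Tm4sf19 (0.81), Muc13 (0.74), Rara (0.73), Phlda3 (0.66), Ncf4 (0.60) and Shank1 (0.42). It was lower with PML/RARA for Fmnl2 (-1.87), Stra8 (-1.79), Rtp4 (-1.52), Tespa1 (-1.29), Ifi203 (-1.25), Ddx60 (-1.24), Ifi27l2a (-1.17), Pecam1 (-1.13), Ncr1 (-1.08), Gzma (-1.08), Mcm10 (-0.97), Kit (-0.92), Rrm2 (-0.83), Zbtb16 (-0.79), Tgm2 (-0.76), Hp (-0.76), Clec11a (-0.70), Top2a (-0.70), Myc (-0.53), Erap1 (-0.53), Il1rap (-0.49) and Psmb8 (-0.40). With each of the 24 arrays left out in turn 34 of the 46 kept their call. The other 12 lost it in at least 1 of those fits: Tgm2, Zbtb16, Rtp4, Ddx60, Psmb8, Il1rap, Clec11a, Ncf4, Myc, Angpt1, Shank1 and Gzma. The call of Rtp4 was the least stable of these, lost in 19 of the 24 fits, with differences from -2.21 to -0.96.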

How the results depend on the processing

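The count of 1351 genes called for RA at 12 h was 647 with PLZF/RARA arrays only, 803 with 12 h and 860 with 6 h untreated arrays only, 2142 with array weights, 577 in the 12 h arrays with the 2 runs of consecutive title codes as a block, 746 at adjusted p below 0.01, 499 at 1.5-fold or more, and 836 to 1493 with single arrays left out. The 248 genes between treated times were 164 with batch 1 arrays only, 3 with PLZF/RARA arrays only, 75 at adjusted p below 0.01, 93 at 1.5-fold or more, and 84 to 574 with single arrays left out. The 1 gene between untreated labels was 0 with batch 1 arrays only, PLZF/RARA arrays only, quantile normalization, median centring, a trend prior, the 8 arrays only or adjusted p below 0.01, and 0 to 33 with single arrays left out. The 1752 genes between fusions were 585 with 12 h untreated arrays only, 753 at adjusted p below 0.01, 861 at 1.5-fold or more, and 962 to 2346 with single arrays left out. Interferon-induced genes called higher (34) were 15 with PLZF/RARA arrays only, 18 with the 8 arrays only, 17 with the title code block, and 27 to 35 with single arrays left out, and between the treated times (24) they were 1 with PLZF/RARA arrays only and 17 to 30. Between the fusions with 12 h untreated arrays only, replication genes called lower (22) were 10, Myc and ribosome biogenesis genes (13) were 2 and mitosis genes (9) were 0, and with single arrays left out they were 17 to 24, 6 to 15 and 2 to 10. Retinoid targets called higher (7) ran from 6 to 9 and stem and progenitor genes called lower (10) from 9 to 11 with single arrays left out. Of 109 named genes called at 12 h, 71 were called under every alternative run and 0 changed direction, and 102 kept their call with each of the 8 arrays left out in turn. For the other lists, each count of a list and direction was taken again under each setting. It stayed within 1.5 times the reported count in 667 of these cases and moved further in 194. The cause of these shifts was not tested, beyond the fewer arrays or stricter threshold that some settings use. Every title carries the same replicate number and the labels pair no arrays, so no paired analysis was run. The title code block above groups the 12 h arrays by runs of codes whose meaning the labels do not give, and whether the runs stand for a pairing was not tested.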

Other observations

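Further gene groups were counted in the comparison of RA at 12 h with untreated PLZF/RARA arrays, where 3.81% of all genes were called higher and 2.96% lower. Lysosome and autophagy genes leaned upward, with 6 of 23 called higher and 1 lower (median 0.18). The lysosomal proteases Ctsh, from 8.88 to 9.11 without RA to 9.92 to 10.09 with RA (0.95 ± 0.15, limma adjusted p = 4.99e-05), and Ctsb (0.70 ± 0.09) were among the 6. Of 24 Bcl2 family and apoptosis genes 5 were called higher and 1, Bcl2, lower (median 0.11). Tnfsf10 (TRAIL), a ligand of death receptors, went from 6.04, 5.56, 5.67 and 5.47 to 6.30, 6.58, 6.75 and 6.70, with no overlap between the groups (0.90 ± 0.17, adjusted p = 0.000379). Bak1, which opens the outer mitochondrial membrane, rose by 0.57 ± 0.09. The count higher in this list was 2 or 3 when untreated 6 h arrays 1 or 2, untreated 12 h array 2 or RA arrays 2 or 3 were left out. Of 30 chemokines, cytokines and receptors 5 were called higher, Tnfsf10 among them, and 4 lower (median 0.05), with Il15 (-1.26 ± 0.19) and Il12a (-0.98 ± 0.20), cytokines that act on NK and T cells, among the lower. The higher count was 2 without RA array 1 or untreated 6 h array 1, and 3 without RA array 3 or either untreated 12 h array.

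The p53 and senescence groups had medians near 0. Of 24 genes of p53 and its targets 3 were called higher and 4 lower (median 0.01). Gadd45a, a stress protein of growth arrest, rose from 7.11 to 7.44 without RA to 7.87 to 8.53 with RA (0.96 ± 0.13, adjusted p = 4.81e-06), and Phlda3, an inhibitor of AKT, fell from 7.27 to 7.98 without RA to 6.51 to 6.99 with RA (-0.84 ± 0.10, adjusted p = 1.14e-06). The higher count was 6 without untreated 12 h array 1, and the lower count was 2 without RA arrays 1, 2 or 3, untreated 12 h array 2 or untreated 6 h array 2. Of 17 CDK inhibitors and senescence genes 2 were called higher, Cdkn2d (0.73 ± 0.18) among them, and 1 lower (median -0.01). The higher count was 1 without untreated 6 h array 2, and the lower count 2 without untreated 12 h array 1. Of 19 PML nuclear body and SUMO genes Sp100 alone was called by limma (0.59 ± 0.11, adjusted p = 0.000308), and the median was 0.03.

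Of 15 coagulation and fibrinolysis genes 2 were called higher, factor V (F5, 0.64 ± 0.16) and factor X (F10, 0.39 ± 0.10), and 0 lower (median -0.02). Of 23 actin, integrin and adhesion genes 4 were called higher and 2 lower (median 0.06), with Fmnl2, Tubb6, Pecam1 and the integrin Itgb7 (0.96 ± 0.17) higher. Of 21 cholesterol and fatty acid synthesis genes 2 were called higher, the sterol desaturase Sc5d (0.83 ± 0.10) among them, and 0 lower (median -0.04). The remaining groups had few calls. Immediate early and stress genes gave 0 higher and 2 lower of 21 (median 0.06), ATF4 and unfolded protein response genes 1 higher and 2 lower of 24 (median 0.01), and mitochondrial respiration and haem synthesis genes 1 higher and 1 lower of 23 (median 0.04). With single arrays left out the immediate early count fell to 0 or 1 in each of the 8 fits, the ATF4 count higher to 0 in 6 (all but RA array 3 and untreated 12 h array 2) and the count lower to 1 in 6 (all but RA array 4 and untreated 12 h array 1), the actin count lower to 1 in 7 (all but RA array 2), and the mitochondrial count higher to 0 without untreated 12 h array 1. Of 13767 probe sets without a single gene symbol 135 were called, 95 higher and 40 lower.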
